A study of Mus musculus with 12 samples.

Results

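Myoglobin, the creatine kinases and the purine energy genes were examined as a group of 8 genes, and their rows were taken by name from the 55536 genes of the count table. The genes are Mb (myoglobin), Ckm, Ckb, Ckmt1 and Ckmt2 (the muscle, brain and mitochondrial creatine kinases), Slc6a8 (the creatine transporter), Ak1 (adenylate kinase 1) and Ampd1 (muscle AMP deaminase). All 8 were found, and 6 of them passed the filter on low counts, while Ckmt1 and Ckmt2 did not.

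The RNA came from C2C12GFP cells, a mouse myoblast line that expresses green fluorescent protein and fuses into myotubes in low-serum medium. All cells were put through this differentiation, on plates that were uncoated (control) or coated with Collagen I, Fibronectin or Geltrex, a basement membrane extract. The study asked how these matrix coatings bear on the slow or fast fiber type of the cells. RNA-seq was done on 3 samples for each of the 4 groups, 12 in all. When during differentiation the RNA was taken is not given in the sources used here, and the cultures are a single line grown in vitro.

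Muscle contraction can use ATP faster than mitochondria and glycolysis restore it, and 3 small systems help to cover the gap. Creatine kinases move phosphate between creatine phosphate and ADP, adenylate kinase makes ATP and AMP from ADP, and AMP deaminase clears the AMP into the purine nucleotide cycle. Myoglobin stores oxygen and carries it towards the mitochondria, and it is known as a gene of slow and oxidative fibers, while muscle creatine kinase replaces the brain form as myoblasts mature into myotubes.

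Sequencing depth, as the total of the gene counts, ran from 22520404 to 27351766 among the samples. Levels are given in CPM, counts divided by the library size as scaled by TMM, and levels of different members are compared only as CPM per kilobase of exon. Collagen I replicate 3 stood apart from the other samples, with 11.5% of its counts on mitochondrial genes against 6.90% and 6.39% in the other Collagen I samples and 4.56% to 8.28% in the remaining groups. Some results of the Collagen I group are therefore also given without it. No sources used here say that the samples of a group came from separate cultures, so the p-values measure only the spread between these samples, which may be technical.

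A gene was called when edgeR's quasi-likelihood test gave a Benjamini-Hochberg adjusted p of at most 0.05 over all 14499 genes tested. On Fibronectin, 5 of the 6 tested genes were lower than in the control and 0 were higher, where 14.7% of all tested genes were called lower and 17.1% higher. Among the 5 is Ampd1, which passed the filter only through control and Collagen I samples, so the filter favored its call, and without it 4 of 5 genes were lower. On Geltrex, 5 of the 6 were lower than in the control and 0 higher, against 16.6% and 16.4% of all tested genes. Collagen I against the control gave 0 calls in either direction among the 6, where 0.917% of all tested genes were called lower and 0.200% higher. At an unadjusted p under 0.05 there were 2 of the 6 in that comparison, where 2143 of the 14499 tested genes were, and DESeq2 called 1, Ckm.

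Set directly against Fibronectin, Collagen I had 5 of the 6 genes higher and 0 lower, or 4 of 5 without Ampd1, with 22.1% and 22.9% of all tested genes. Set against Geltrex, it had 4 of the 6 higher and 0 lower, with 18.2% and 19.0% of all tested genes. Without Collagen I replicate 3 the counts were again 5 and 4, and without Collagen I replicate 2 they were 4, with the call of Ampd1 lost, and 5, with Slc6a8 added. Over all tested genes, 6523 and 5384 of 14499 were called in these comparisons in the main fit. Without Collagen I replicate 3 it was 5373 and 4550 of 14785, and without Collagen I replicate 2 it was 6321 and 5104 of 14821. Fibronectin against Geltrex gave 2 of the 6 higher and 1 lower, where 10.3% of all tested genes were called higher and 9.06% lower. The counts of members describe genes that were picked for their part in muscle and with earlier results of these data known. The comparisons also share their samples.

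**Figure D1:**
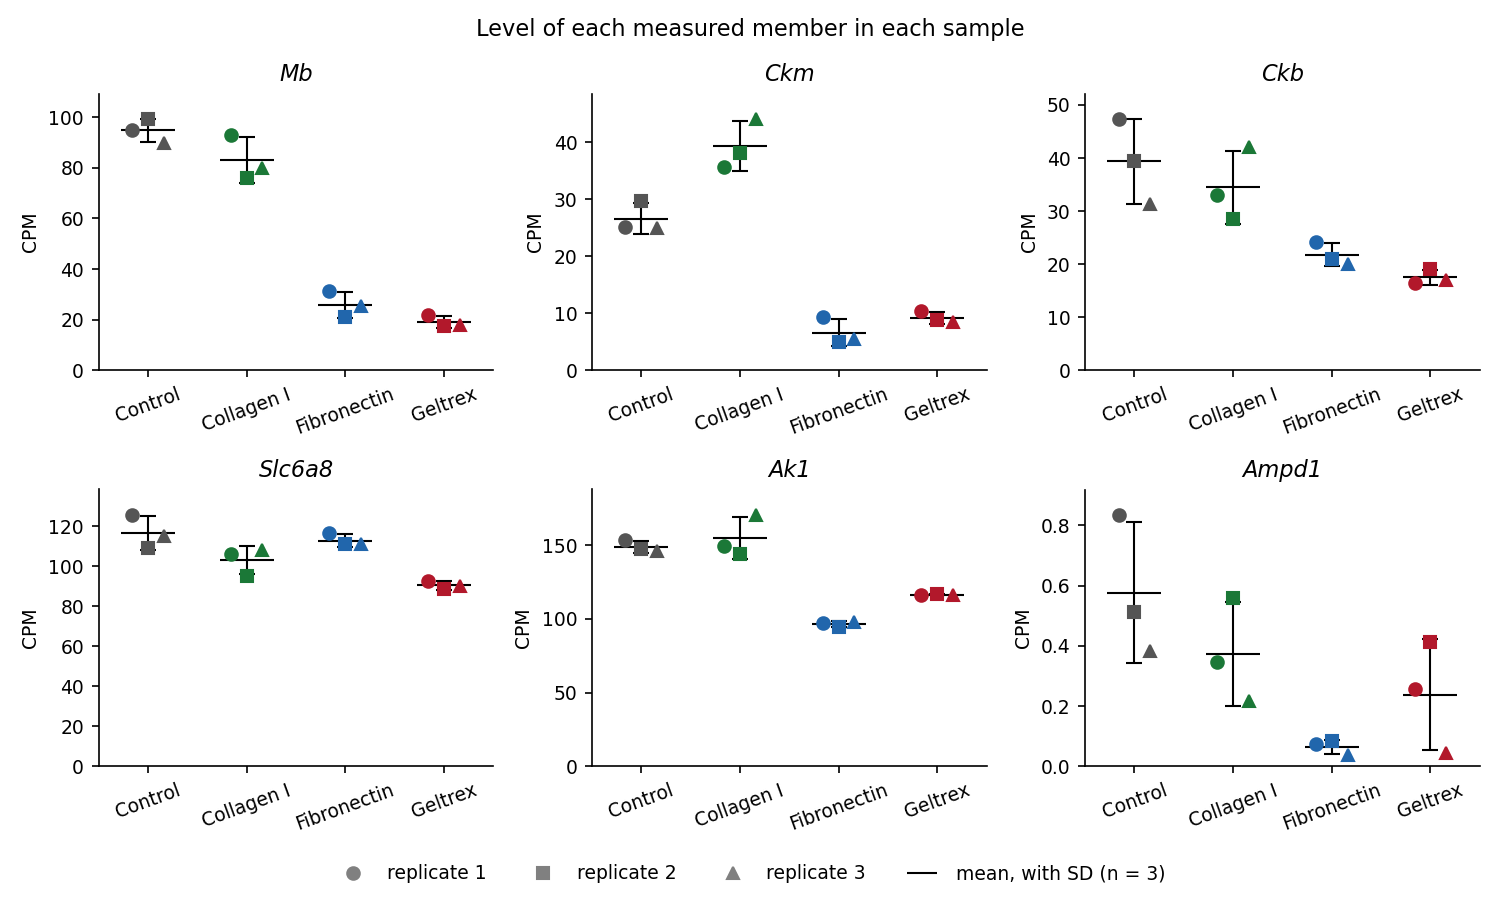
Levels of the 6 tested genes, in CPM on the vertical axis from 0, for each sample of the 4 groups on the horizontal axis, with a bar at the mean and whiskers of 1 SD (n = 3). Mb lay between 76.0 and 99.4 CPM in the control and Collagen I samples. In the Fibronectin and Geltrex samples Mb lay between 17.7 and 31.2 CPM. Slc6a8 lay between 88.5 and 126 CPM, with the Geltrex samples all below every other sample.

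Mb (ENSMUSG00000018893; GRCm38 chr15:77015487-77050670, minus strand), the oxygen carrier, had 94.9, 99.4 and 90.0 CPM in control replicates 1, 2 and 3. On Collagen I it had 93.2, 76.0 and 79.9 CPM, on Fibronectin 31.2, 21.1 and 25.5 CPM, and on Geltrex 22.0, 17.7 and 18.1 CPM. All 6 control and Collagen I samples thus lay above all 6 Fibronectin and Geltrex samples, while the control and Collagen I overlapped and so did Fibronectin and Geltrex. The group means were 94.8 ± 4.72 CPM (SD, n = 3) in the control, 83.0 ± 8.99 on Collagen I, 25.9 ± 5.08 on Fibronectin and 19.2 ± 2.35 on Geltrex.

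On Fibronectin, the log2 fold change of Mb against the control was -1.87 (SE 0.13, adjusted p = 3.94e-08). On Geltrex it was -2.30 (SE 0.13, adjusted p = 5.87e-09), which made Mb the member with the largest fall on this coating. Against Collagen I, Mb was 3.20-fold lower on Fibronectin (adjusted p = 8.05e-08) and 4.31-fold lower on Geltrex (adjusted p = 1.06e-08). Collagen I itself did not differ from the control beyond the spread of the samples, with a log2 fold change of -0.19 and a 95% interval from -0.45 to 0.07 (adjusted p = 0.472).

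Between the low groups, Mb was higher on Fibronectin than on Geltrex by 0.43 on the log2 scale (adjusted p = 0.0304), although the samples overlapped. This call rested on single libraries: the adjusted p was 0.174 without Fibronectin replicate 1, 0.130 without Geltrex replicate 2 and 0.113 without Geltrex replicate 3. Exons of Gm49540 on the opposite strand cover 27.6% of the exon bases of Mb, and those of Apol6 cover 4.29%. The use of strand in the counting is not stated, so reads from these pairs cannot be told apart, but Gm49540 had 17 counts and Apol6 557 counts over all 12 samples against 1345 for Mb in the Geltrex samples alone.

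Ckm (ENSMUSG00000030399; chr7:19404776-19422841, plus strand) encodes the muscle creatine kinase, which binds to the sarcomere. It had 25.1, 29.8 and 25.0 CPM in the control and 35.6, 38.2 and 44.2 CPM on Collagen I. On Fibronectin it had 9.40, 5.02 and 5.51 CPM, and on Geltrex 10.4, 8.82 and 8.48 CPM. Every Collagen I sample lay above every control sample, and every control sample above every Fibronectin and Geltrex sample, while the latter groups overlapped.

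The mean level of Ckm was 26.6 ± 2.73 CPM (SD, n = 3) in the control, 39.3 ± 4.38 on Collagen I, 6.64 ± 2.40 on Fibronectin and 9.24 ± 1.04 on Geltrex. Against the control, it was 3.99-fold lower on Fibronectin (SE of the log2 fold change 0.18, adjusted p = 7.28e-07) and 2.88-fold lower on Geltrex (SE 0.18, adjusted p = 6.51e-06). Collagen I exceeded Fibronectin by 5.89-fold (adjusted p = 4.15e-08), the largest difference of any member that was well covered by counts. Collagen I exceeded Geltrex by 4.25-fold (adjusted p = 2.30e-07).

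The difference of Ckm between Collagen I and the control was 0.56 on the log2 scale (SE 0.16), with an adjusted p of 0.105 that missed the threshold although the groups did not overlap. DESeq2 gave 0.56 with an adjusted p of 0.0477, and edgeR gave 0.0295 without Fibronectin replicate 1 and 0.000228 with no filter on low counts. The difference was not called by edgeR with RLE scaling (adjusted p = 0.106) or with at least 10 counts in every sample (0.103). Nor was it called with only the groups compared (0.0803) or with the replicate numbers as a block (0.103). Without Collagen I replicate 3 the difference was 0.46 (adjusted p = 0.261). Over all the samples left out in turn, the adjusted p ran from 0.0295 to 0.269.

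Between Fibronectin and Geltrex, Ckm differed by -0.47 on the log2 scale (adjusted p = 0.0950), which was not called. Fibronectin replicate 1, with 253 counts, was the highest of its group, and without it the difference became -0.81 (adjusted p = 0.00227). Exons of A930016O22Rik on the opposite strand cover 15.5% of the exon bases of Ckm, and that gene had 20 counts in all samples together.

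Ckb (ENSMUSG00000001270; chr12:111669361-111672338, minus strand), the brain or cytosolic form of the enzyme found in myoblasts, had 47.4, 39.4 and 31.3 CPM in the control. On Collagen I it had 33.0, 28.5 and 42.1 CPM, on Fibronectin 24.2, 21.1 and 20.1 CPM, and on Geltrex 16.4, 19.2 and 17.0 CPM. The control and Collagen I samples overlapped and all lay above the Fibronectin samples, which in turn all lay above the Geltrex samples. The means were 39.4 ± 8.06, 34.5 ± 6.89, 21.8 ± 2.13 and 17.5 ± 1.42 CPM in that order (SD, n = 3).

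Against the control, the log2 fold change of Ckb was -0.85 on Fibronectin (SE 0.15, adjusted p = 0.000519) and -1.17 on Geltrex (SE 0.15, adjusted p = 2.50e-05). Collagen I was higher than Fibronectin by 0.66 (adjusted p = 0.00247) and higher than Geltrex by 0.97 (adjusted p = 0.000147). Without Collagen I replicate 3, its highest Collagen I sample, these differences were 0.50 (adjusted p = 0.0131) and 0.81 (adjusted p = 0.000573). Fibronectin and Geltrex differed by 0.31 (adjusted p = 0.174), which was not called, although the groups did not overlap. The 95% interval of that difference ran from -0.02 to 0.64.

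**Figure D2:**
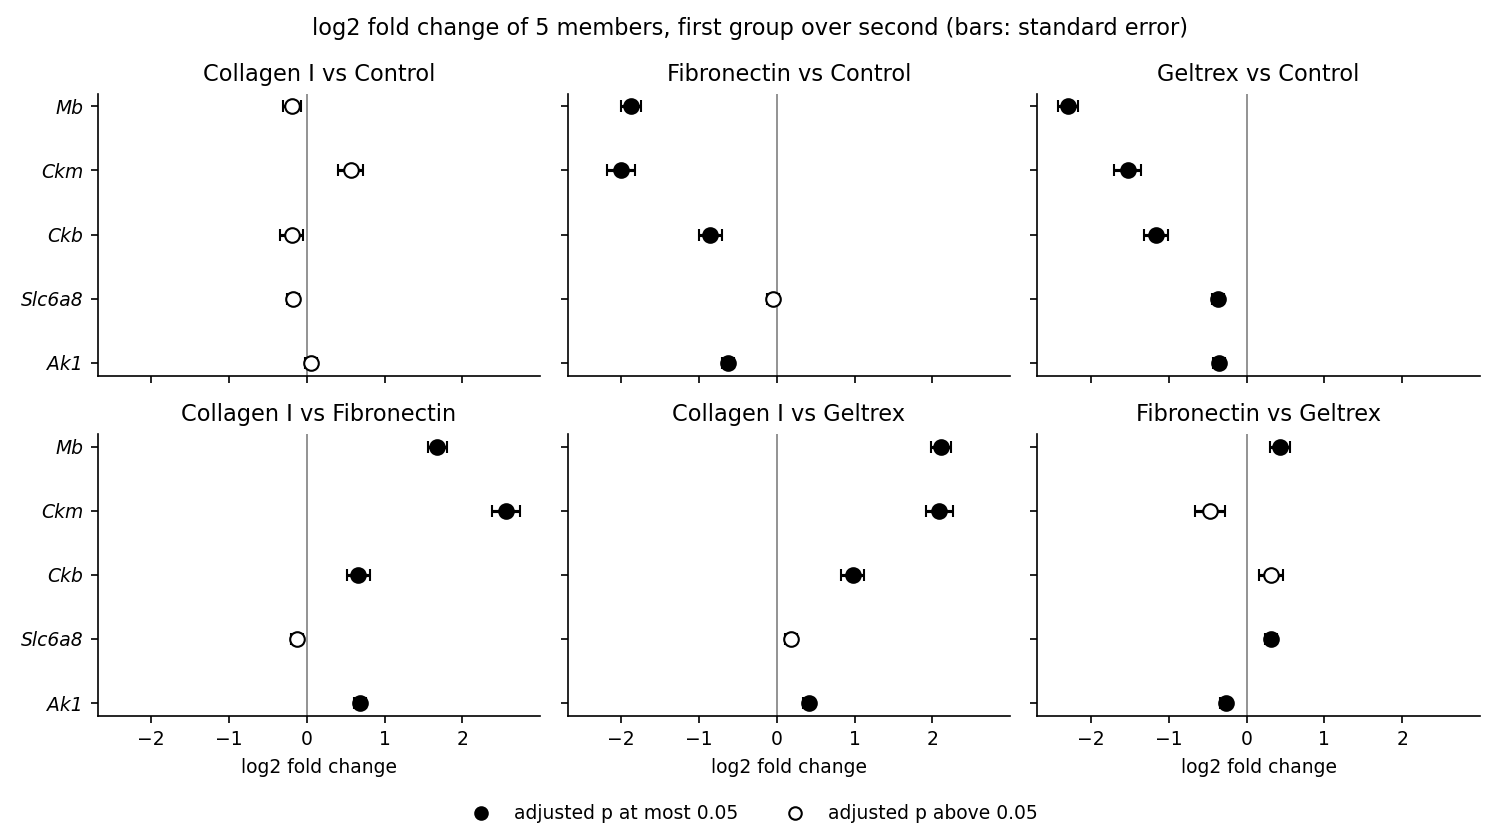
Fitted log2 fold changes, on the horizontal axis, of 5 members, on the vertical axis, in the 6 comparisons, first group over second, with bars of 1 standard error. Filled points have an adjusted p of at most 0.05: Mb, Ckm, Ckb and Ak1 are filled in the 4 comparisons of the control or Collagen I with Fibronectin or Geltrex, and no point is filled for Collagen I against the control.

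Since exon lengths of Ckm and Ckb, with all annotated exons of a gene merged, are 2913 and 2895 bases, the balance of the isozymes was read per length. Merged lengths can exceed that of the transcript expressed, so levels per length compared between genes depend on the annotation. Ckm made up 34.5%, 42.8% and 44.3% of the summed creatine kinase level in the control samples and 51.6%, 56.9% and 51.0% in the Collagen I samples. It made up 27.9%, 19.2% and 21.4% on Fibronectin and 38.6%, 31.4% and 33.0% on Geltrex. The Collagen I samples thus all had a larger Ckm share than any other sample, the Fibronectin samples all had a smaller one, and the control and Geltrex overlapped between them.

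In CPM per kilobase, the ratio of Ckm to Ckb averaged 1.15 ± 0.158 (SD, n = 3) on Collagen I, 0.690 ± 0.144 in the control, 0.527 ± 0.0908 on Geltrex and 0.299 ± 0.0779 on Fibronectin. Ckm was therefore the more abundant transcript only in the Collagen I samples. The summed creatine kinase level was 22.8 ± 2.96 CPM per kilobase in the control and 25.5 ± 3.69 on Collagen I, but 9.81 ± 1.54 on Fibronectin and 9.24 ± 0.414 on Geltrex. Fibronectin and Geltrex overlapped in this sum, so they differed in the isozyme share while the sum did not separate them. The shares and ratios were described without a test.

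**Figure D3:**
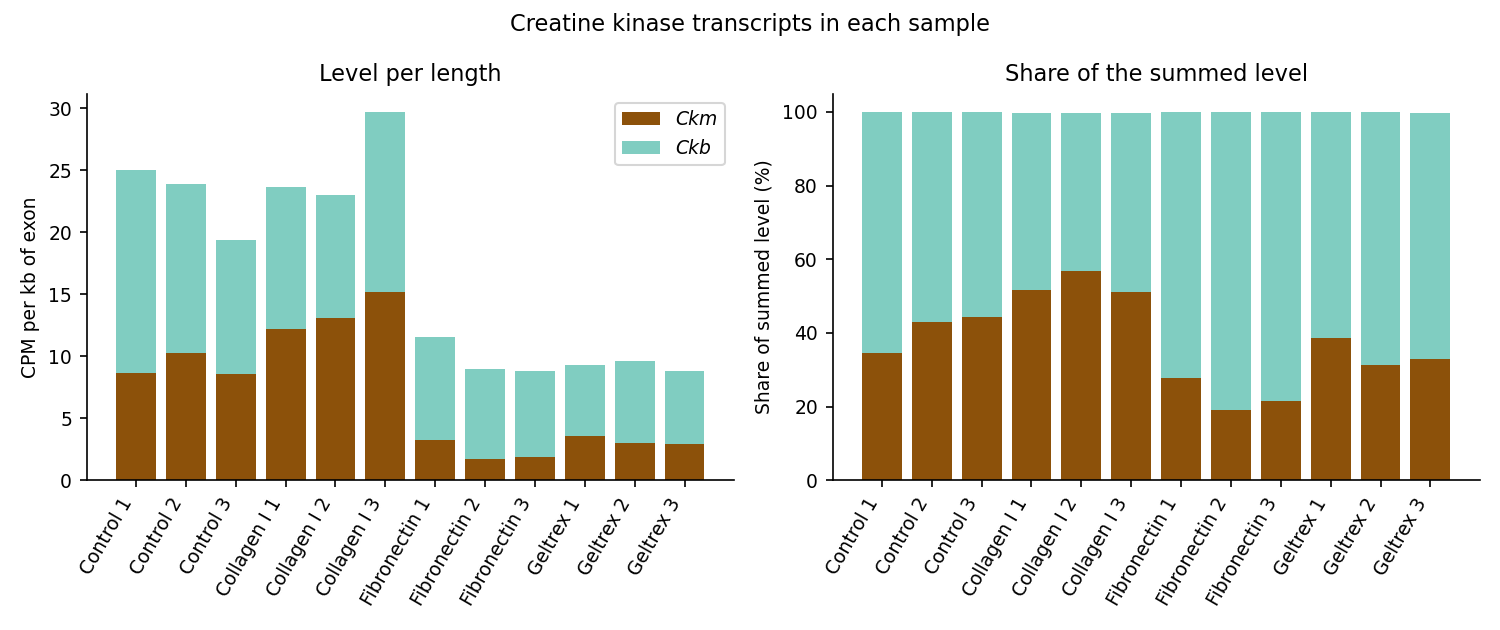
Creatine kinase transcripts in each of the 12 samples on the horizontal axis. Bars from 0 show the levels of Ckm and Ckb in CPM per kilobase of exon on the left, and on the right their shares in percent of the summed level of all 4 creatine kinase genes, where Ckm lies between 51.0% and 56.9% in the Collagen I samples and between 19.2% and 27.9% in the Fibronectin samples.

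The mitochondrial creatine kinases, which sit between the mitochondrial membranes and pass phosphate from new ATP to creatine, were almost without counts. Ckmt1 (ENSMUSG00000000308; chr2:121357714-121363737, plus strand), the ubiquitous form, had 1 count in Geltrex replicate 3 and 0 in the other 11 samples. Ckmt2 (ENSMUSG00000021622; chr13:91853387-91876885, minus strand), the form of striated muscle, had 3, 3 and 2 counts on Collagen I, 1 count in control replicate 2 and 0 counts in all others. Since 3 counts correspond to 0.110 to 0.135 CPM in these libraries, both genes were at or under the limit that a count of 0 allows, and no fold change was computed. The 8 counts of Ckmt2 on Collagen I made up 0.195% to 0.369% of the creatine kinase level per length.

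Slc6a8 (ENSMUSG00000019558; chrX:73673150-73682502, plus strand) encodes the transporter by which muscle cells take up creatine. It had 126, 109 and 115 CPM in the control, 106, 95.2 and 108 CPM on Collagen I, 117, 111 and 111 CPM on Fibronectin, and 92.6, 88.5 and 90.3 CPM on Geltrex. The Geltrex samples were all below every other sample, the Collagen I samples were all below those of the control and Fibronectin, and the latter overlapped. Against the control, the log2 fold change of Slc6a8 on Geltrex was -0.37 (SE 0.08, adjusted p = 0.00164). Fibronectin was higher than Geltrex by 0.32 (SE 0.08, adjusted p = 0.00838). Collagen I was not called against the control (-0.18, adjusted p = 0.299) or against Fibronectin (-0.13, adjusted p = 0.181).

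Fibronectin and the control differed by -0.05 in Slc6a8, with a 95% interval from -0.21 to 0.11 (adjusted p = 0.671). Collagen I and Geltrex differed by 0.19 (adjusted p = 0.0655), a difference that was called without Collagen I replicate 2 (0.24, adjusted p = 0.0362) and with at least 10 counts in every sample (0.20, adjusted p = 0.0463). Whether the change of Slc6a8 differed from those of Ckm and Ckb was not tested.

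The other genes of the phosphagen list were those of creatine synthesis, Gatm, which makes guanidinoacetate, and Gamt, which methylates it. Neither was called in any coating against the control: Gatm had log2 fold changes of -0.01, -0.08 and 0.19 on Collagen I, Fibronectin and Geltrex (adjusted p = 0.959, 0.461 and 0.0768). Gamt had 0.34 on Collagen I (adjusted p = 0.239), 0.00 on Geltrex (adjusted p = 0.989) and -0.30 on Fibronectin (adjusted p = 0.1). Without Collagen I replicate 3, 1 of these 2 genes was called lower on Fibronectin than in the control, and both were lower on Fibronectin than on Geltrex. In that setting 5293 and 3436 of all 14785 tested genes were called in these comparisons, in either direction. With DESeq2 and with RLE scaling, 1 of the 2 was called lower on Collagen I than on Geltrex, where 5345 of 17371 and 5357 of 14499 genes were called. Collagen I was higher than Fibronectin in Gamt, with 19.5 ± 3.91 against 12.5 ± 0.746 CPM (log2 fold change 0.64, adjusted p = 0.00129). Fibronectin was lower than Geltrex in Gatm, with 163 ± 3.71 against 197 ± 1.28 CPM (log2 fold change -0.28, adjusted p = 0.0242).

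Ak1 (ENSMUSG00000026817; chr2:32621758-32635058, plus strand), the cytosolic adenylate kinase of muscle, was abundant in every sample. It had 153, 147 and 146 CPM in the control, 149, 144 and 171 CPM on Collagen I, 97.5, 94.3 and 97.6 CPM on Fibronectin, and 116, 117 and 116 CPM on Geltrex. All control and Collagen I samples lay above all Geltrex samples, and these above all Fibronectin samples, while the means of Mb and Ckb had Fibronectin above Geltrex. Against the control, the log2 fold change of Ak1 was -0.62 on Fibronectin (SE 0.07, adjusted p = 1.33e-05) and -0.35 on Geltrex (SE 0.07, adjusted p = 0.00163).

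Collagen I was higher than Fibronectin in Ak1 by 0.68 (adjusted p = 3.88e-06) and higher than Geltrex by 0.41 (adjusted p = 0.000488), and without Collagen I replicate 3 by 0.61 (adjusted p = 5.37e-06) and 0.33 (adjusted p = 0.00130). Fibronectin was lower than Geltrex by -0.27 (adjusted p = 0.0180), and leaving out single samples of these groups moved this adjusted p to as much as 0.0649, without Geltrex replicate 2. It was also above the threshold without Fibronectin replicate 1 (0.0514), Fibronectin replicate 2 (0.0617), Geltrex replicate 1 (0.0624) or Geltrex replicate 3 (0.0591), and with no filter on low counts (0.0532). The log2 fold change itself ran only from -0.28 to -0.25 over all the samples left out in turn. Collagen I and the control differed by 0.06, with a 95% interval from -0.10 to 0.21, and by -0.03 without Collagen I replicate 3.

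Per length, Ak1 stood at 57.4 CPM per kilobase in the control and Mb at 63.5, both above the summed creatine kinase level. The ratio of Ak1 to that sum was 2.55 ± 0.303 (SD, n = 3) in the control, 2.35 ± 0.121 on Collagen I, 3.85 ± 0.531 on Fibronectin and 4.86 ± 0.209 on Geltrex. Every Geltrex sample exceeded every Fibronectin sample in this ratio, and both groups lay above the control and Collagen I. The ratio of Mb to Ckm per length was 6.97 ± 0.434 in the control and 7.90 ± 1.29 on Fibronectin, but 4.17 ± 0.827 on Collagen I and 4.07 ± 0.127 on Geltrex. The high pair and the low pair did not overlap, so the balance of the oxygen carrier and the muscle creatine kinase paired the groups differently from their levels.

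Ampd1 (ENSMUSG00000070385; chr3:103074014-103099720, plus strand), the muscle form of AMP deaminase, was counted rarely, and it passed the filter through 2 control samples and 1 Collagen I sample. It had 21, 14 and 9 counts in the control, 8, 15 and 5 on Collagen I, 2, 2 and 1 on Fibronectin, and 6, 10 and 1 on Geltrex. The Fibronectin samples were all below the control and Collagen I samples, and Geltrex overlapped with every group. Summed over its samples and scaled to library size, the control had 8.87 times the Fibronectin level, with an exact 95% interval of 3.53 to 28.7 that covers counting error only.

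Collagen I had 5.86 times the Fibronectin level of Ampd1 (exact 95% interval 2.23 to 19.4), and the ratio of the control to Geltrex was 2.38 (1.33 to 4.44). The ratio of Geltrex to Fibronectin was 3.73 (1.32 to 12.9). Intervals that included 1 were those of the control to Collagen I, 1.51 (0.922 to 2.53), and of Collagen I to Geltrex, 1.57 (0.831 to 3.06). The fitted log2 fold change of Geltrex against the control was -1.24 and was not called. It ran from -1.88 to -0.78 with single samples left out. Since Ampd1 was tested only because control and Collagen I samples were high, these ratios describe the counts and its test is not used for the differences.

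The genes around these members were taken from 6 lists of the phosphagen system, adenylate kinases, the purine nucleotide cycle with AMP breakdown and salvage, purine synthesis, globins and heme, and mitochondrial exchange of ATP and phosphate. Apart from the members they hold 57 genes, of which 49 were tested. On Fibronectin, 7 of the 49 were higher and 8 lower than in the control, or 14.3% and 16.3%, close to the shares of all tested genes. On Geltrex, 9 were higher and 7 lower, or 18.4% and 14.3%, again close to those shares. Collagen I against the control had 0 calls, with 7 of the 49 at an unadjusted p under 0.05, where 2143 of all 14499 genes were, and 1 call by DESeq2, Hmox1, which was named after its value was seen.

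Collagen I against Fibronectin had 15 of the 49 higher and 10 lower, or 30.6% and 20.4%, against 22.1% and 22.9% of all tested genes. Collagen I against Geltrex had 6 higher and 9 lower, or 12.2% and 18.4%, against 18.2% and 19.0%. Fibronectin against Geltrex had 2 higher and 7 lower, or 4.08% and 14.3%, against 10.3% and 9.06%. No excess over all tested genes was tested, and the counts of single lists below are small.

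Among the other adenylate kinases, 5 of 8 were tested. Ak4, a mitochondrial matrix form, was higher than in the control on Fibronectin (log2 fold change 0.33, adjusted p = 0.0281) and on Geltrex (0.50, adjusted p = 0.00184), opposite in direction to Ak1 in the same comparisons. Ak5 was higher on Fibronectin than on Geltrex by 1.78 (adjusted p = 0.00550), at a level of only 1.05 ± 0.541 against 0.302 ± 0.0568 CPM.

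In the list of the purine nucleotide cycle, AMP breakdown and salvage, 19 of the 20 other genes were tested. On Fibronectin 3 were higher and 4 lower than in the control, with a median log2 fold change of 0.06 against -0.02 for all tested genes, of which 17.1% were higher and 14.7% lower. The largest was that of Adssl1, the muscle form of adenylosuccinate synthetase and so the next enzyme of the cycle after Ampd1. It fell from 31.1 ± 2.83 to 15.1 ± 2.10 CPM (log2 fold change -1.04, adjusted p = 1.36e-05).

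Impdh1, of guanine nucleotide synthesis, had a log2 fold change of -0.65 on Fibronectin (adjusted p = 0.00112). Ampd3, the AMP deaminase of many tissues, went from 85.3 ± 5.68 to 56.6 ± 5.52 CPM (log2 fold change -0.59, adjusted p = 0.000176). Gda, which deaminates guanine, was higher on Fibronectin by 0.44 (adjusted p = 0.00249).

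On Geltrex, 4 of the 19 were higher and 5 lower than in the control, with a median log2 fold change of 0.10 against -0.01 for all tested genes, of which 16.4% were higher and 16.6% lower. Xdh, the xanthine dehydrogenase that makes urate at the end of purine breakdown, rose from 15.1 ± 0.908 to 40.7 ± 0.895 CPM (log2 fold change 1.43, adjusted p = 7.80e-08). Gda rose from 19.6 ± 2.48 to 37.4 ± 0.827 CPM (0.93, adjusted p = 1.73e-06). Nt5e, the surface enzyme that turns AMP into adenosine, fell from 8.40 ± 0.0779 to 5.03 ± 0.246 CPM (-0.74, adjusted p = 0.000203).

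Adssl1 had a log2 fold change of -0.55 on Geltrex against the control (adjusted p = 0.00254), and Ampd3 had -0.38 (adjusted p = 0.00494). Fibronectin against Geltrex had 1 gene of this list higher and 3 lower, or 5 lower with DESeq2 or without Collagen I replicate 3, where 10.3% of all tested genes were higher and 9.06% lower. Xdh was lower on Fibronectin than on Geltrex by -1.07 (adjusted p = 3.08e-06), Gda by -0.50 (adjusted p = 0.00128) and Adssl1 by -0.49 (adjusted p = 0.0122), while Nt5e was higher by 0.98 (adjusted p = 3.10e-05).

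Collagen I had 7 of the 19 higher and 5 lower than Fibronectin (22.1% and 22.9% of all tested genes), among them Adssl1 (log2 fold change 0.98, adjusted p = 1.80e-05) and Gmpr, the GMP reductase (0.62, adjusted p = 0.00322). In the same comparison Adss, the adenylosuccinate synthetase of most tissues, was lower by -0.54 (adjusted p = 0.000100), so the muscle and the general form of this enzyme moved in opposite directions. Without Collagen I replicate 3 the counts were 5 higher and 4 lower. Collagen I had 4 of the 19 higher and 6 lower than Geltrex (18.2% and 19.0% of all tested genes), led by Xdh (-1.43, adjusted p = 7.25e-08) and Gda (-0.82, adjusted p = 5.80e-06), and 3 higher and 4 lower without that library.

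All 7 genes of purine synthesis from small precursors were tested. Prps2, which makes the ribose phosphate that the pathway starts from, was higher than in the control on Fibronectin (log2 fold change 0.72, adjusted p = 7.06e-06) and on Geltrex (0.57, adjusted p = 5.35e-05). Pfas, a later enzyme of the pathway, was higher on Fibronectin (0.29, adjusted p = 0.0162) and on Geltrex (0.33, adjusted p = 0.00784). Prps1 was lower on Geltrex by -0.23 (adjusted p = 0.0399), a call that was lost with DESeq2, and the other 4 genes were not called against the control.

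**Figure D4:**
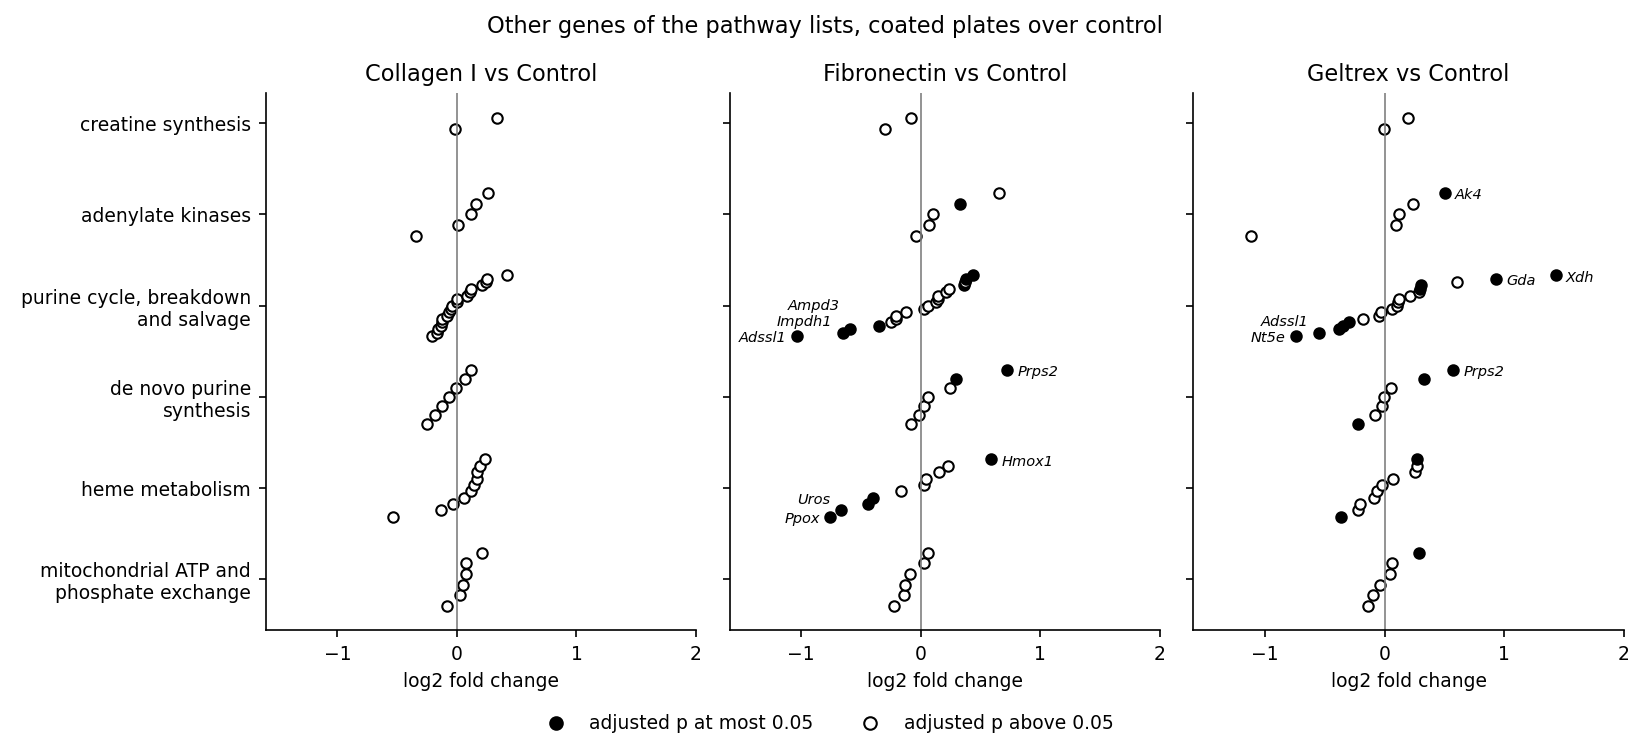
Fitted log2 fold changes, on the horizontal axis, of the 49 tested genes of 6 pathway lists other than the members, with the lists on the vertical axis, for each coating against the control. Filled points have an adjusted p of at most 0.05 and are named where the change is 0.5 or more in size: Adssl1 lies at -1.04 on Fibronectin and Xdh at 1.43 on Geltrex.

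Heme is the oxygen-binding group of myoglobin, and 10 of the 13 other genes of the globin and heme list were tested. Cygb, the cytoglobin, reached no more than 6 counts and was not tested. On Fibronectin, 4 were lower than in the control and 1 higher, with a median log2 fold change of -0.07 against -0.02 for all tested genes, of which 14.7% were lower and 17.1% higher. Ppox had -0.76 (adjusted p = 0.00475), Uros -0.67 (adjusted p = 0.000863) and Alas1, which starts heme synthesis, -0.44 (adjusted p = 0.00415). Hmox1, the inducible enzyme that breaks heme down, was higher by 0.59 (adjusted p = 0.00517), with 58.3 ± 14.3 against 38.8 ± 1.58 CPM.

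On Geltrex, 1 of the 10 was lower than in the control, Uros (log2 fold change -0.36, adjusted p = 0.0334), and 1 was higher, Hmox2 (0.27, adjusted p = 0.0128), where 16.6% of all tested genes were lower and 16.4% higher. Collagen I against Fibronectin had 5 higher and 2 lower (22.1% and 22.9% of all tested genes), and the call of Hmox2 among them was lost with DESeq2, with RLE scaling and without Collagen I replicate 3. In this comparison Ppox was at 0.93 (adjusted p = 0.000749), Uros at 0.86 (adjusted p = 6.32e-05) and Hmox1 at -1.12 (adjusted p = 1.96e-05). Collagen I against Geltrex had 2 higher and 1 lower (18.2% and 19.0% of all tested genes), the latter Hmox1 (-0.80, adjusted p = 0.000462), and the call of Alas1 was lost without Collagen I replicate 3. Fibronectin against Geltrex had 0 higher and 3 lower (10.3% and 9.06% of all tested genes), which were Ppox (-0.69, adjusted p = 0.0141), Urod (-0.31, adjusted p = 0.0421) and Hmox2 (-0.25, adjusted p = 0.0357), while Mb was higher on Fibronectin by 0.43.

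Of the 7 carriers and channels that move ATP, ADP and phosphate across the mitochondrial membranes, 6 were tested. On Fibronectin against the control edgeR called 0 of them, where 17.1% of all tested genes were higher and 14.7% lower. DESeq2 called 1 lower, as did edgeR without Collagen I replicate 3, and 1 had an unadjusted p under 0.05. Slc25a3 had a log2 fold change of -0.22 (adjusted p = 0.0509). Slc25a4, the ATP and ADP carrier of heart and muscle, had -0.14 (adjusted p = 0.333). On Geltrex Slc25a5, a second carrier of this kind, was higher by 0.28 (adjusted p = 0.0340), and Slc25a4 had 0.06 (adjusted p = 0.718). Collagen I was higher than Fibronectin in Slc25a4 by 0.35 (adjusted p = 0.0133), a call that was lost without Collagen I replicate 3, and in Slc25a3 by 0.30 (adjusted p = 0.00859).

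Levels of myotube markers are set beside those of the members. The 12 markers, with Myh3, Mylpf or Des the one of highest CPM in each sample (not per length), summed to 10685, 10898 and 9767 CPM in the control and 10919, 10479 and 10662 CPM on Collagen I. They summed to 3675, 3129 and 3326 CPM on Fibronectin and 4902, 4564 and 4752 CPM on Geltrex, and none of the 12 was at 0 in any sample. Against the control all 12 were lower on each of these coatings, where 14.7% of all tested genes were lower on Fibronectin and 16.6% on Geltrex. The median log2 fold change of the 12 was -2.05 on Fibronectin and -1.49 on Geltrex. Beside these stand -1.87 and -2.30 for Mb, and -0.85 and -1.17 for Ckb, while Ckm was 3.99-fold and 2.88-fold lower.

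The 9 markers of undifferentiated or cycling myoblasts, had Top2a or Mki67 as the gene of highest CPM (not per length). Their sums were 238, 259 and 272 CPM in the control and 208, 194 and 213 CPM for Collagen I, with 604, 772 and 645 CPM on Fibronectin, and 627, 679 and 683 CPM on Geltrex, and none was at 0 in any sample. On Fibronectin and on Geltrex 5 of the 9 were higher than in the control, where 17.1% and 16.4% of all tested genes were. All 5 were cell cycle genes (Mki67, Top2a, Cdk1, Ccnb1 and Ccna2). The other 4, Pax7, Myf5, Id1 and Id3, were not called, with log2 fold changes of -0.19, 0.08, 0.03 and -0.05 on Fibronectin and -1.35, -0.05, -0.31 and 0.30 on Geltrex. Without Collagen I replicate 3, 1 of the 9 was called lower on Geltrex than in the control. The part of these markers in the results for the members was not tested, and in bulk samples like these fewer myotubes and less RNA per myotube cannot be told apart.

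**Figure D5:**
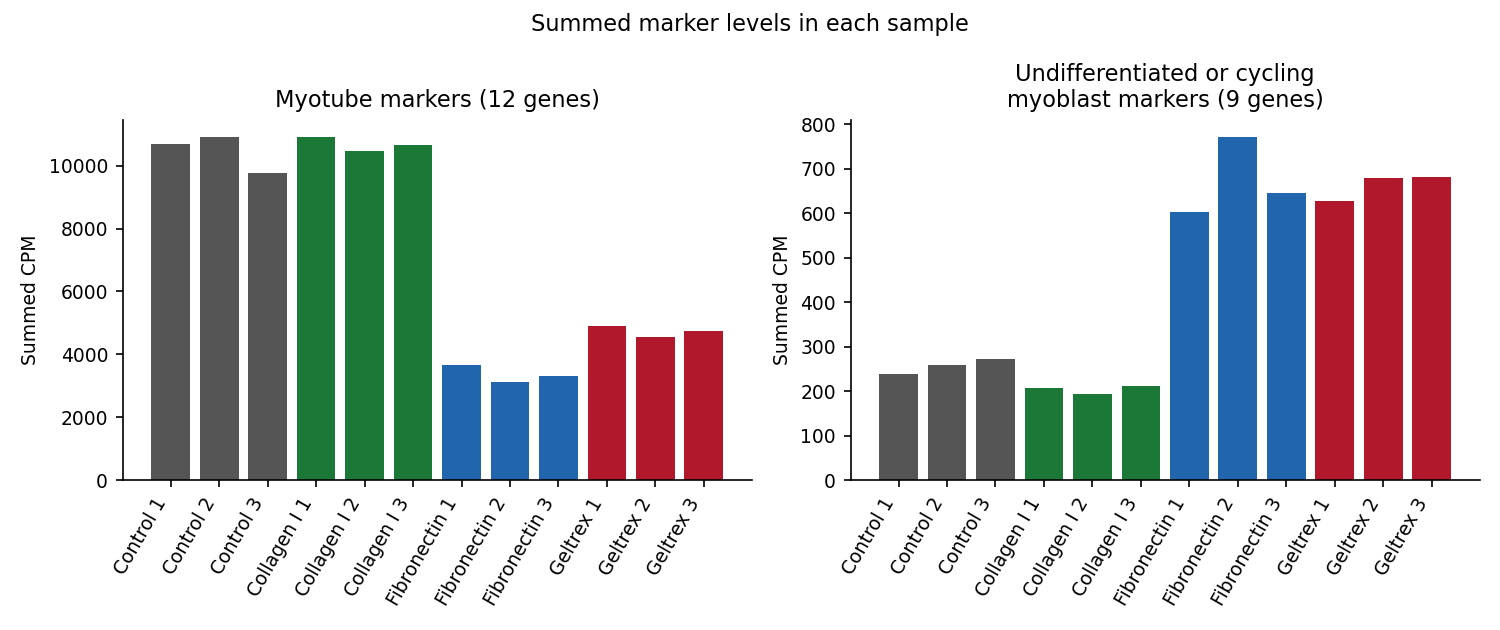
Summed levels of 12 myotube markers (left) and 9 markers of undifferentiated or cycling myoblasts (right), in CPM on vertical axes from 0, with 1 bar for each of the 12 samples on the horizontal axis. The myotube sum is at least 9767 CPM in each control and Collagen I sample and at most 4902 CPM in each Fibronectin and Geltrex sample.

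Fibronectin and Geltrex differed in the myotube markers too, with 8 of the 12 lower on Fibronectin. Among all tested genes 9.06% were lower and 10.3% higher. The median log2 fold change of the 12 was -0.46, beside -0.47 for Ckm and -0.27 for Ak1. In the same comparison Mb had 0.43, Ckb 0.31 and Slc6a8 0.32. Markers of adipocytes, osteoblasts, endothelial cells and leukocytes were at or near 0, with summed levels of at most 0.474 CPM in any sample for the adipocyte list and less for the others. Ibsp and Adgre1 had 0 counts in all samples.

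The genes most like Mb, Ckm and Ckb over the 12 samples were found by Pearson correlation of log2 CPM among 8916 genes with a mean of at least 10 CPM, as a description of 12 samples that share the 4 groups. For Mb they were Fgfrl1, Myl2, Trim63, Tom1 and Mrps31 (r = 0.988 to 0.978). Myl2, the slow and cardiac regulatory light chain, went from 57.8 CPM in the control and 57.9 CPM on Collagen I to 7.62 on Fibronectin and 6.85 on Geltrex. For Ckm they were Trdn, Fabp3, Myl4, Psmc3 and Mcu (r = 0.986 to 0.979).

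Trdn, a protein of the calcium release unit, had 61.2 CPM in the control, 81.8 on Collagen I, 16.8 on Fibronectin and 26.1 on Geltrex, the same order of groups as Ckm. Fabp3, the fatty acid carrier of heart and muscle, had 16.3, 20.9, 3.67 and 5.57 CPM in that order. For Ckb the genes were Aqp5, Wnt10a, Ebp, Serinc2 and Ecsit (r = 0.976 to 0.954), and Wnt10a went from 19.5 CPM in the control to 7.44 on Geltrex.

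For Mb, Ckm and Ckb, the oxygen carrier and the creatine kinases with counts enough to be tested, sequences just before their starts are shown, credited to RefSeq on GRCm38.p6. The set of promoter sequences used here had 12 windows for 6 of the 8 genes, and windows for Ampd1 and Slc6a8 were not in it. Of the 3 windows of Mb the one free of annotated exon bases is shown. Capitals mark CANNTG, the E-box letters that read the same on both strands, or the MEF2 consensus. Mb is chr15:77022788-77023037 (minus strand), Ckm is chr7:19410844-19411024 (plus strand, ending where exon bases of Ckm begin in its window) and Ckb is chr12:111672339-111672588 (minus strand). The windows of Mb and Ckm lie inside the annotated spans of these genes, before starts within them.
Mb: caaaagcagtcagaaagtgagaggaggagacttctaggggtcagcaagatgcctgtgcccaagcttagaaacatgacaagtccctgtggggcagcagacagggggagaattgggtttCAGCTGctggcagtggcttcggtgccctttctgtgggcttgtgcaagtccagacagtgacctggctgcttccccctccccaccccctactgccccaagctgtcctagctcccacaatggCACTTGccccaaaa
Ckm: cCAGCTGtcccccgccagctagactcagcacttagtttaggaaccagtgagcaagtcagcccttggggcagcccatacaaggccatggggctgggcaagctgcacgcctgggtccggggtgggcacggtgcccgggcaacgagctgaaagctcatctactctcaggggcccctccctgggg
Ckb: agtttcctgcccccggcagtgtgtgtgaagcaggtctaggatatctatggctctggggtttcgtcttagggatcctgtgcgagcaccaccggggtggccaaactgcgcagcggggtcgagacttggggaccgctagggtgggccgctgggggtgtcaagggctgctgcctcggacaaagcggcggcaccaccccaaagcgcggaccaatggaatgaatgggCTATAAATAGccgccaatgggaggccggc

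The window of 250 bases shown for Mb holds 2 matches to CANNTG, 1 of them CAGCTG, while the other Mb windows hold 3 and 2 matches with 1 and 0 CAGCTG. The full window of Ckm, of which 69 bases lie in its own exons and are not printed, holds 1 match, a CAGCTG. The 4 windows of Ak1, which are not printed, hold 3, 1, 2 and 1 matches to CANNTG, with 1, 1, 0 and 0 CAGCTG. The window of Ckb holds no CANNTG, but 1 match to the MEF2 consensus that overlaps a TATAAA on the strand of the gene, 28 bases before the start. Over 32851 windows of the same length, 66.2% hold CANNTG, 13.0% CAGCTG, 2.92% the MEF2 consensus and 7.59% TATAAA on the strand of the gene. These matches describe the letters of the windows, and no binding was measured here.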

How the data were processed

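The authors used FastQC for read quality, Trimmomatic for trimming, HISAT2 for alignment and featureCounts for counting, and deposited 1 table of raw counts. The genome build, the annotation and the use of strand are not given in the sources used here. All 55536 identifiers were matched to GENCODE M21 (GRCm38) for names, positions and exon lengths, with all annotated exons of a gene merged. Genes were kept by filterByExpr (minimum count 10, minimum total 15), which left 14499. Libraries were scaled by TMM, and edgeR 4.0.16 in R 4.3.3 fitted 1 quasi-likelihood model of the 4 groups (8 residual degrees of freedom), with Benjamini-Hochberg adjustment over all genes tested in each of 6 comparisons. The SE is the log2 fold change divided by the root of the F statistic, and 95% intervals use the degrees of freedom of the test.

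The 8 members and the gene lists were chosen with earlier results of these data known. All members were described, and from each list up to 4 called genes with the largest log2 fold change, besides Gatm, Gamt, Ampd3, Cygb and Slc25a4, were eligible to be named, as were the 5 genes most like Mb, Ckm and Ckb (log2 CPM, prior count 2). Not every eligible gene is named, and the result of 1 of them is not reported here. Alternatives were DESeq2 1.42.0, RLE scaling, no filter on low counts, at least 10 counts in every sample, only the groups compared, a replicate block, each sample left out, a fold change of at least 2 and shares without exon length. No samples of a group agreed within sampling noise, so none were merged. The exact intervals and the floors of 3 counts describe counting alone, since PCR copies of a molecule cannot be told apart here. The procedure was also run on simulated data, but the outcome is not reported here and no result rests on it.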

Additional observations from a re-analysis of the deposited data

How the results depend on the processing

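With RLE scaling all 36 fitted log2 fold changes of the 6 tested members kept their direction and their side of the threshold, and the median of all genes moved by at most 0.0115 (log2) under RLE and 0.0140 under DESeq2. With DESeq2 34 kept both and 1 was newly called, with no filter on low counts 33 kept both, 2 were newly called and 1 was lost, and with at least 10 counts in every sample 29 kept both and 1 was newly called. With only the groups compared 30 kept both and 1, Ckb in Fibronectin against Geltrex, was newly called (0.31, adjusted p = 0.0458). Settings that leave Ampd1 or its adjusted p out give no value for it.

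The replicate numbers were also fitted as a replicate block. Same-numbered samples did not deviate together in every pair (correlations from -0.154 to 0.225), and nothing in the sources used here says that they share more than a number. The replicate block called 0, 5, 5, 5, 4 and 3 members in Collagen I, Fibronectin and Geltrex against the control, Collagen I against Fibronectin and Geltrex, and Fibronectin against Geltrex, the same numbers as without it (4 instead of 5 without Ampd1 in Fibronectin against the control and in Collagen I against Fibronectin), with 163, 4627, 4763, 6570, 5399 and 2799 of all genes. It moved no member's log2 fold change by more than 0.0589.

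Among the values without 1 sample, 418 kept direction and side, 9 were lost, 3 newly called and 2 changed sign, neither of them called. The log2 fold change of Ak1 in Collagen I against the control ran from -0.0278, without Collagen I replicate 3, to 0.107, and that of Slc6a8 in Fibronectin against the control from -0.0865 to 0.00962, without control replicate 1. Members called ranged from 0 to 1 in Collagen I against the control and from 1 to 3 in Fibronectin against Geltrex. All genes called ranged from 44 to 233 and from 1717 to 3436 in these comparisons. Collagen I against the control, with 162 genes in the main setting, had 452 with DESeq2, 581 with no filter and 39 with only the groups compared, and 1 member with DESeq2 or no filter.

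With a fold change of at least 2 added, members called were 3 in Fibronectin and in Geltrex against the control, 3 and 2 in Collagen I against Fibronectin and Geltrex, and 0 in Fibronectin against Geltrex, and without Ampd1 2 instead of 3 in Fibronectin against the control and in Collagen I against Fibronectin. All genes were then 19, 965, 1325, 1226, 1352 and 577 in the order above. The causes of these moves were not tested. Of 80 calls of other pathway genes, 4 were lost with DESeq2, 2 with RLE and 12 without Collagen I replicate 3, settings chosen for these lists after seeing the data. Ckm shares without division by exon length moved by less than 1 SD. Ckmt1, Ckmt2 and Ampd1 had few counts, and whether more depth would change their results was not tested.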
